A study of Mus musculus with 9 samples.

Results

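miR-139-5p (mmu-miR-139-5p), the 5p arm of the microRNA miR-139, was followed through neuron formation in the mouse cortex. It is 1 of 1052 mature miRNAs in the deposited table and was found there by its mature name, in a single row. It was chosen because earlier results of these counts showed it among the miRNAs that rose most in newborn neurons, so its levels are given as a description, without a test.

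Small RNA was sequenced from cells sorted out of the lateral cortex of C57BL/6 embryos at embryonic day 14.5, after removal of meninges, ganglionic eminences and olfactory bulb. Cells carried endogenous fluorescent reporters named R and G in the sample titles, and all 9 libraries came from tissue of this strain, region and age. Cells without either signal made up the proliferating progenitors, cells with R but not G the differentiating progenitors, and cells with G the newborn neurons, at 3 libraries for each population. The reporter mice are known from the published work of the group as carrying R under the Btg2 gene, active in progenitors that will divide into neurons, and G under the neuronal tubulin gene Tubb3, but the labels name neither promoter. The first population is thus defined by the absence of both signals, and any unlabelled cell of the tissue would sort with it. The labels do not say whether the libraries of a population came from separate litters or sorts, so the spread between them may be partly technical.

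A microRNA is cut from a hairpin in a longer transcript, and a mature strand of about the length printed here guides the silencing machinery to messenger RNAs that pair with its seed, the bases near its 5′ end. In the developing cortex, dividing stem-like cells give rise to committed progenitors and these to postmitotic neurons, and the miRNA content of the cells changes along the way. miR-139 is made from an intron of Pde2a, which encodes a phosphodiesterase that degrades cyclic nucleotides and is stimulated by cyclic GMP. It is known from brain, and in tumour studies it is best known as a strand that is low in many cancers.

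The sequences of the hairpin and of both arms are shown because no other miRNA that could be compared carried the seed of miR-139-5p. They are RefSeq sequences on GRCm38.p6, written 5′ to 3′. Capitals mark the seed, bases 2 to 8, in the mature strands, and the whole 5p arm in the hairpin.
miR-139-5p: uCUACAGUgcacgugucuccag
miR-139-3p: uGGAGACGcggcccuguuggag
Mir139 hairpin: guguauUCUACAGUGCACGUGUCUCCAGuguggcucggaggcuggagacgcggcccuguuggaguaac
No other of the 1679 mature mouse miRNA names in the RefSeq table shared the seed CUACAGU, and none shared its bases 2 to 7. The seed letters occurred anywhere in only 1 further mature sequence, miR-3086-3p, outside its own seed. A given table name could be compared only if RefSeq held it, which was so for 892 of the 1052 names and 163 of the 188 tested ones. miR-139-5p therefore stood in no seed family within these sequences. How many other names have a seed of their own was not counted, so this is not shown to be particular to miR-139-5p. The 2 miRNAs miR-7a-5p and miR-7b-5p, to which it is compared further on, share a seed with each other.
miR-7a-5p: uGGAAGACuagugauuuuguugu
miR-7b-5p: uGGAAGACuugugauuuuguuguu
The hairpin of 68 bases was folded with RNAfold to a minimum free energy of -35.6 kcal/mol, in which 20 of the 22 bases of the 5p arm were paired, 19 of them with bases of the 3p arm. The 3p arm had no row in the table and was not analysed here.

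The hairpin lies on the plus strand of chromosome 7 at chr7:101475376-101475443 (GRCm38, the build mm10 of the submitters' processing notes), and the 5p strand covers chr7:101475382-101475403. Pde2a (ENSMUSG00000110195.1) spans chr7:101421691-101512827 on the same strand in GENCODE M21. All 4 of its protein-coding transcripts hold the hairpin in intron 2, which is 29902 bases long, with 23907 bases to the exon before and 5927 bases to the exon after it. A second protein-coding gene of the annotation, Gm45837 (ENSMUSG00000030653.17, chr7:101410886-101512819), annotated as a readthrough transcript, spans the hairpin on the same strand and also holds it in an intron. No exon of an annotated transcript of Pde2a or Gm45837 overlaps it. The nearest other hairpin of the RefSeq table on this chromosome, Mir326, is 1923 kb away, and miR-326-5p had 1 count over the 9 libraries, so no neighbouring miRNA gave a second readout of the locus. The Pde2a messenger RNA was not measured in these libraries.

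In newborn neurons miR-139-5p had 916, 399 and 236 counts in replicates 1 to 3. The differentiating progenitors had 23, 21 and 34 counts of it and the proliferating progenitors 4, 14 and 8. Every differentiating library was above every proliferating one, and every neuron library was far above both progenitor populations.

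Totals of counted miRNA reads ran from 821155 to 3856484 per library, the largest being neuron replicate 1, and a count of 0 would have allowed 0.778 to 3.65 CPM, counts scaled to a common library total. Each neuron library gave miR-139-5p 1 count in 4210 to 4710, against 1 in 43835 to 59742 in differentiating progenitors and 1 in 77354 to 330957 in proliferating progenitors. As CPM of the library total, proliferating progenitors had 3.02 (95% Wilson interval 1.18 to 7.77), 12.9 (7.70 to 21.7) and 9.74 (4.94 to 19.2). Differentiating progenitors had 16.7 (11.2 to 25.1), 18.6 (12.1 to 28.4) and 22.8 (16.3 to 31.9). Neurons had 238 (222.6 to 253), 212.3 (192 to 234) and 221 (195 to 251). The intervals reflect the counting error of reads alone and treat each read as an independent draw. PCR copies of a molecule are counted as separate reads, so the intervals may be too narrow for molecules. The interval of proliferating replicate 1 lies below all 3 differentiating ones, and those of proliferating replicates 2 and 3 overlap each of the 3. Those of the neurons lie above all 6 progenitor intervals.

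**Figure D1:**
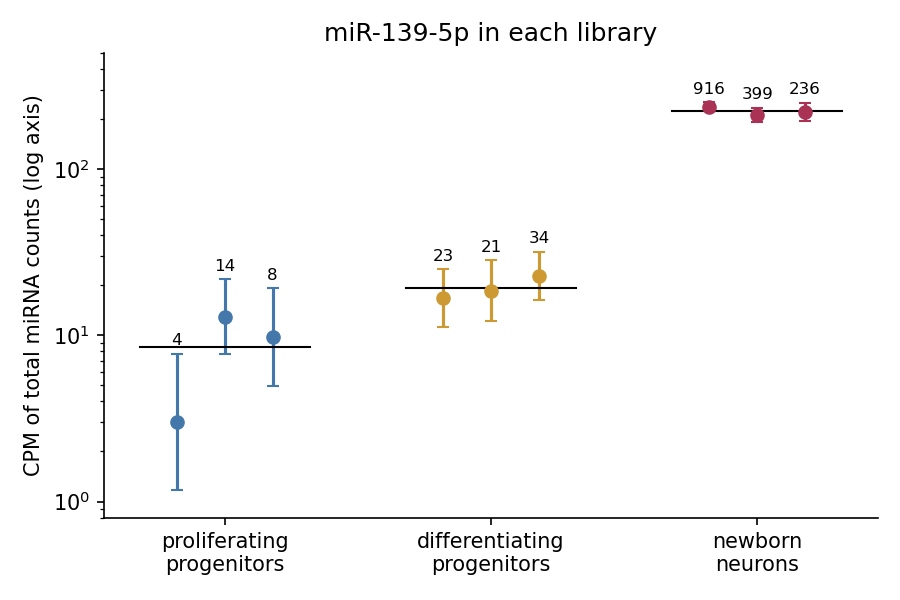
miR-139-5p in each library as CPM of the total miRNA counts (log axis). Points are libraries in the order of their replicate numbers, bars their 95% Wilson intervals, numbers above the bars the counts, and horizontal lines the mean of 3 libraries. The neuron libraries lie between 212.3 and 238 CPM, and the highest progenitor library at 22.8 CPM.

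CPM scaled by edgeR's TMM factors, which correct for differences in composition between libraries, are used from here on. On this scale neurons had a mean of 209 ± 27.2 CPM, differentiating progenitors of 19.7 ± 4.03 and proliferating progenitors of 9.27 ± 5.73 (SD, n = 3 each). Neuron replicate 3 had the largest TMM factor, 1.22, and was the lowest neuron library on this scale at 181 CPM, while on the scale of library totals it lay between the others. The coefficient of variation among replicates was 61.8% in proliferating progenitors, where counting error alone would give about 34.5%. In differentiating progenitors it was 20.4%, near the 19.7% of counting error, and in neurons 13.0% against 4.87%. The neuron figure depends on the scaling: on library totals the neurons had a mean of 224 CPM with an SD of only 12.8. The progenitor levels are thus limited by counts and, in the proliferating cells, also by the distance between replicate 1 and the other libraries.

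The rise was not evenly spread over the lineage. From proliferating to differentiating progenitors, the first step, miR-139-5p was 1.18 higher on the log2 scale (SE 0.40), or 2.26-fold. From differentiating progenitors to neurons, the second step, it was 3.40 higher (SE 0.29), or 10.6-fold, and over both steps 4.58 higher (SE 0.34), or 23.9-fold. In CPM, 94.8% of the gain in the mean fell at the second step, and on the log2 scale 74.3% of it. The log2 change of the second step exceeded that of the first by 2.23 (SE 0.61). Both steps share the differentiating libraries, so an error in their level would raise one step and lower the other.

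The gap between populations shows the same order. The lowest differentiating library, at 16.4 CPM, was 1.15 times the highest proliferating one, at 14.3 CPM. The lowest neuron library was 7.49 times the highest differentiating library, at 24.2 CPM. Over all 188 tested miRNAs, 13.8% had every differentiating library above every proliferating one and 27.1% had every neuron library above every differentiating one, and 32.4% did so for neurons against proliferating progenitors. A total of 16 miRNAs (8.51%) were separated upward at both steps, miR-139-5p among them.

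The size of the first step depended on which proliferating library was left out. When this was replicate 1, which had 4 counts, the log2 change was 0.65 (SE 0.36), and when it was replicate 2, which had 14, it was 1.73 (SE 0.46). The second step stayed between 3.30 and 3.65 in the 9 fits that each left out 1 library. The excess of the second step over the first ran from 1.67 to 2.76 in the same fits, the lowest without replicate 2 and the highest without replicate 1 of the proliferating progenitors.

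In the order of miRNAs by abundance, miR-139-5p moved up along the lineage. Among the 560 miRNAs with a count, its mean CPM ranked 161st in the proliferating progenitors, 131st in the differentiating ones and 62nd in neurons. Ranked library by library, it stood between 59 and 65 in the neurons, no higher than 122 in the differentiating libraries, and at 154 in the middle proliferating library. The SD of its rank between libraries was 3.0 in neurons, 8.54 in differentiating and 34.4 in proliferating progenitors, and the ranks of the 3 populations did not overlap. Ranks of counts compare miRNAs whose ends are ligated into a library with different efficiency, so a rank is one of reads rather than of molecules. Few 3p arms appear among the tested miRNAs, and miR-9-3p and miR-7a-2-3p, for instance, had no row. The rank is thus one among the counted strands, and a level given for another miRNA is that of its counted arm.

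**Figure D2:**
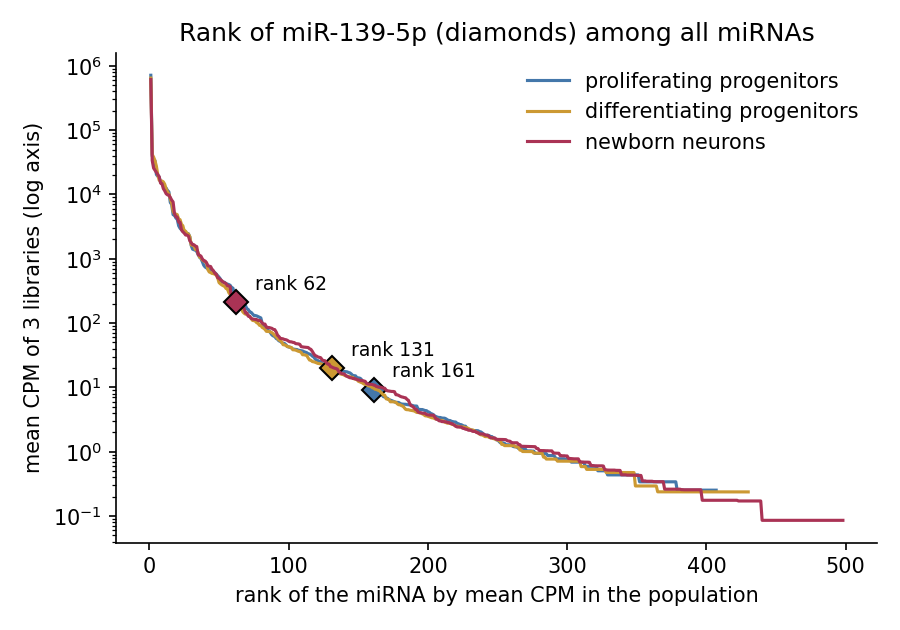
Mean CPM of 3 libraries (log axis) against rank by mean CPM, for each population, with miR-139-5p as a diamond on each curve. miRNAs with a mean of 0 are left out. miR-139-5p moves from rank 161 over rank 131 to rank 62 along curves of nearly the same shape.

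Its neighbours in that order in neurons were reached along other paths. Just above it were miR-382-5p, of the imprinted Dlk1-Dio3 cluster, at 216 ± 62.2 CPM and miR-129-5p at 213 ± 37.8 CPM, and just below were miR-134-5p, of the same cluster, at 191 ± 38.6 and miR-15b-5p at 185 ± 65.2 CPM (SD, n = 3). The levels of these 4 and of miR-139-5p in neurons lay within their SDs of each other. In proliferating progenitors the same miRNAs stood at 48.8 ± 14.7, 689 ± 86.7, 75.8 ± 22.0 and 387 ± 20.0 CPM (SD, n = 3), all above the 9.27 CPM of miR-139-5p. miR-129-5p and miR-15b-5p thus came to the level of miR-139-5p from above, with log2 changes over both steps of -1.69 and -1.07.

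By size of change, miR-139-5p ranked 10th of 188 at the first step, 2nd at the second and 4th over both, counting from the largest rise. At the second step miR-217-5p was above it, with 4 counts in each differentiating library and at least 75 in each neuron library. Over both steps miR-216b-5p, miR-7b-5p and miR-217-5p were above it. miR-216b-5p had 0 counts in all 3 proliferating libraries and 54, 18 and 20 in neurons, so its fitted change has no measured base. miR-217-5p had 2, 1 and 2 counts in the proliferating libraries and a log2 change over both steps of 4.98 (SE 0.37), beside the 4.58 (SE 0.34) of miR-139-5p. The rank at the first step rested on proliferating replicate 1, without which miR-139-5p was 29th. With no filter on low counts, so that 560 miRNAs entered, it ranked 101st at the first step, 7th at the second and 6th over both.

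**Figure D3:**
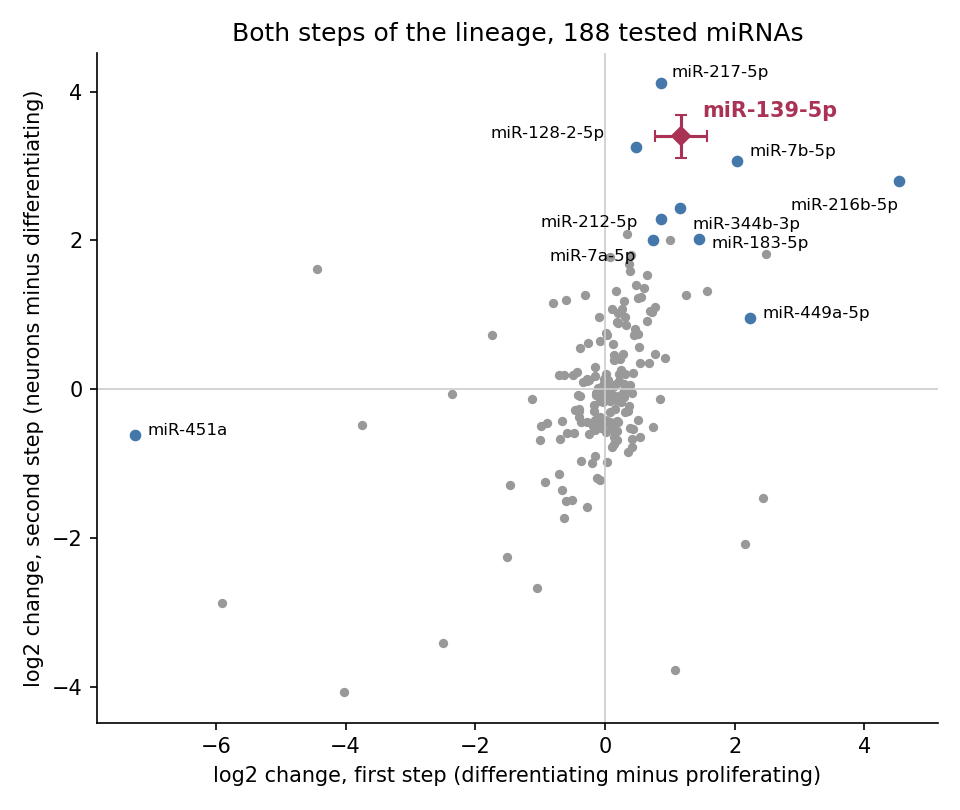
Log2 change at the second step against log2 change at the first step for the 188 tested miRNAs, with miR-139-5p as a diamond with SE bars and the other labelled miRNAs in blue. The value of miR-216b-5p at the first step is a fitted one against a population with no counts. miR-139-5p sits at 1.18 and 3.40, in the upper right part that few miRNAs reach.

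The share of its rise that miR-139-5p made at the second step lay within the range of the miRNAs called as rising. Of the 188 tested, 56 (29.8%) were called higher in neurons than in proliferating progenitors (edgeR's quasi-likelihood test, Benjamini-Hochberg adjusted p under 0.05), and the share of their log2 rise that fell at the second step had a median of 68.4%, with quartiles of 50.3% and 80.8%. The 74.3% of miR-139-5p lies between those quartiles, and 20 of the others had a larger share. The 56 were chosen by a rise in neurons. Some of them, such as miR-217-5p and miR-128-2-5p, passed the filter on low counts only through the neuron libraries. The quartiles thus describe this chosen set, and how usual such timing is was not tested. What placed miR-139-5p apart in the plot of both steps was the size of the second step: its excess over the first ranked 9th of 188.

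The 5 tested miRNAs whose log2 CPM followed miR-139-5p most closely over the 9 libraries were miR-7a-5p (Pearson 0.97, Spearman 0.93), miR-411-5p (0.97 and 0.92), miR-183-5p (0.96 and 0.95), miR-6540-5p (0.96 and 0.93) and miR-216b-5p (0.96 and 0.93). These libraries form 3 populations, so the coefficients largely reflect the population means that libraries share, and 11 of the 187 other miRNAs reached 0.95. miR-7a-5p, a neuronal and endocrine miRNA, was far more abundant: it rose from 3262 ± 526 CPM through 5471 ± 381 to 22043 ± 2441 CPM (SD, n = 3). miR-183-5p, best known from sensory cells, was rarer than miR-139-5p, with at least 62 counts in each neuron library, 14, 10 and 23 in the differentiating libraries and 5, 4 and 4 in the proliferating ones. A close correlation did not mean a change of like size: miR-411-5p, of the Dlk1-Dio3 cluster, went from 205 ± 38.8 CPM through 254 ± 15.9 to 498 ± 10.9 CPM (SD, n = 3), and miR-6540-5p from 38.9 ± 6.74 through 51.0 ± 19.4 to 178 ± 28.3 CPM (SD, n = 3).

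Nearest to miR-139-5p by the sizes of both log2 steps were miR-128-2-5p, at a distance of 0.71 log2 units, miR-217-5p (0.77), miR-7b-5p (0.91), miR-344b-3p (0.97) and miR-212-5p (1.15). The median distance of all 187 others was 3.68, and the 5 lie below it because they were picked for nearness. miR-7b-5p alone among these 5 was more abundant than miR-139-5p. miR-128-2-5p, which is made from an intron of Arpp21, had 59, 66 and 25 counts in neurons, 0, 5 and 4 in the differentiating libraries and 2, 3 and 0 in the proliferating ones. miR-212-5p, from the gene pair with miR-132 that responds to neuronal activity, had 4, 2 and 4, then 7, 3 and 14, then 113, 66 and 33 counts. miR-344b-3p stayed at or under 6 counts in all progenitor libraries and had 47, 25 and 17 in neurons. The SE of the first step was 0.54 or more for miR-128-2-5p, miR-217-5p, miR-344b-3p and miR-212-5p, so their nearness to miR-139-5p at that step is not resolved by these counts. These miRNAs also passed the filter on low counts only through the neuron libraries, so their large second steps follow in part from the filter.

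Set against single miRNAs within a library, which cancels the library's scaling, miR-139-5p was slightly higher relative to miR-7b-5p in neurons than in differentiating progenitors. It amounted to 15.1%, 12.1% and 15.96% of the counts of miR-7b-5p in the differentiating libraries and to 18.4%, 18.9% and 16.7% in the neuron libraries. The differentiating shares rest on 23, 21 and 34 counts of miR-139-5p. The fitted second steps were 3.40 (SE 0.29) for miR-139-5p and 3.07 (SE 0.18) for miR-7b-5p, so a larger rise of miR-139-5p is not resolved. In proliferating progenitors the shares were 8.0%, 46.7% and 33.3%, on 4, 14 and 8 counts of miR-139-5p. Relative to miR-7a-5p it was higher in neurons than in any progenitor library, with 0.948%, 1.02% and 0.880% of its counts against 0.107% to 0.472%. Relative to miR-124-5p, an arm of the neuron-restricted miR-124, it was at 74.5%, 43.5% and 36.0% in neurons and between 5.80% and 27.6% in the progenitor libraries. The neuron libraries were therefore above all others relative to miR-7a-5p and miR-124-5p. Relative to miR-7b-5p they were above every differentiating library, but below the proliferating libraries with 14 and 8 counts of miR-139-5p. Those had only 30 and 24 counts of miR-7b-5p, so the order there is uncertain.

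**Figure D4:**
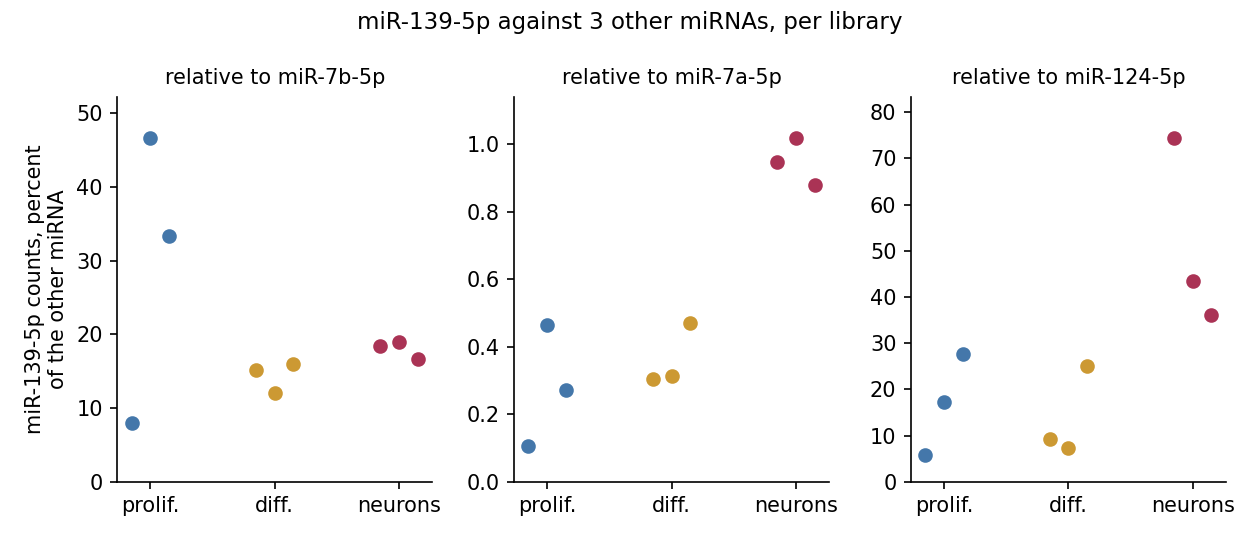
Counts of miR-139-5p as a percent of those of miR-7b-5p, miR-7a-5p and miR-124-5p in the same library, with 1 point per library and axes that start at 0. The proliferating progenitors scatter most relative to miR-7b-5p, from 8.0% to 46.7%, and the neuron libraries are highest relative to miR-7a-5p and miR-124-5p.

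miR-139-5p was next read against miRNAs known to be enriched in brain, from a list of 15. They gave 16 names in the table, of which 15 rose above 3 counts in some library and 14 were tested. All 16 were 5p arms, so the values below are those of the 5p arm, and the 3p arms of these miRNAs were not measured. At the second step 8 of the 14 were called higher and 1 lower, where 23.9% of all tested miRNAs were called higher and 22.3% lower (edgeR adjusted p under 0.05), and the median log2 change was 1.18 against -0.06 for all 188. At the first step 3 were called higher and 1 lower, where 7.98% were called in each direction, with a median of 0.36 against 0.08. Over both steps 9 were called higher and 2 lower, where 29.8% and 26.6% were, with a median of 1.81 against -0.05. Among those called higher at the second step, miR-128-2-5p, miR-132-5p, miR-138-5p, miR-212-5p and miR-383-5p passed the filter only through the neuron libraries. The counts of calls on this list are thus a description, and an excess over the share of all tested miRNAs cannot be read from them.

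The members of the list differed widely from one another. miR-7b-5p rose at both steps, by 2.03 (log2, edgeR adjusted p = 1.04e-06) and 3.07 (edgeR adjusted p = 9.91e-10), with a first step of 2.03 (SE 0.20) beside the 1.18 (SE 0.40) of miR-139-5p. miR-124-5p rose by 1.58 (log2, edgeR adjusted p = 0.00238) and 1.32 (edgeR adjusted p = 0.00171), in about equal steps. miR-7a-5p rose by 0.75 (log2, edgeR adjusted p = 0.000944) and 2.01 (edgeR adjusted p = 1.27e-08). Called at the second step only were miR-128-2-5p (log2 change 3.26), miR-212-5p (2.29), miR-132-5p (2.09), miR-138-5p (1.77), known from dendritic spines, and miR-383-5p (1.04). All 5 had at most 14 counts in any progenitor library and passed the filter only with the neuron libraries, so their being called higher there follows in part from the filter. No p is therefore given for them. Whether their first step differed from that of the others was not tested.

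Brain enrichment did not go with a rise in every case. miR-129-5p fell at both steps, with log2 changes of -1.01 (edgeR adjusted p = 0.000875) and -0.68 (edgeR adjusted p = 0.00639). miR-9-5p, the most abundant miRNA counted in these cells, had log2 changes of -0.14 (SE 0.11) and -0.08 (SE 0.11), and neither was called. miR-218-5p was called over both steps only, at 0.51 (edgeR adjusted p = 0.0140), and the sister strand miR-128-1-5p, from an intron of another gene than miR-128-2-5p, was at 0.37 (SE 0.36) and -0.23 (SE 0.32), neither called. miR-219a-5p, which marks the oligodendrocyte lineage, fell over both steps by 1.10 on the log2 scale (edgeR adjusted p = 0.00419), and miR-488-5p was called in no comparison. miR-137-5p had at most 7 counts and miR-153-5p at most 3 in a library, and neither was tested.

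**Figure D5:**
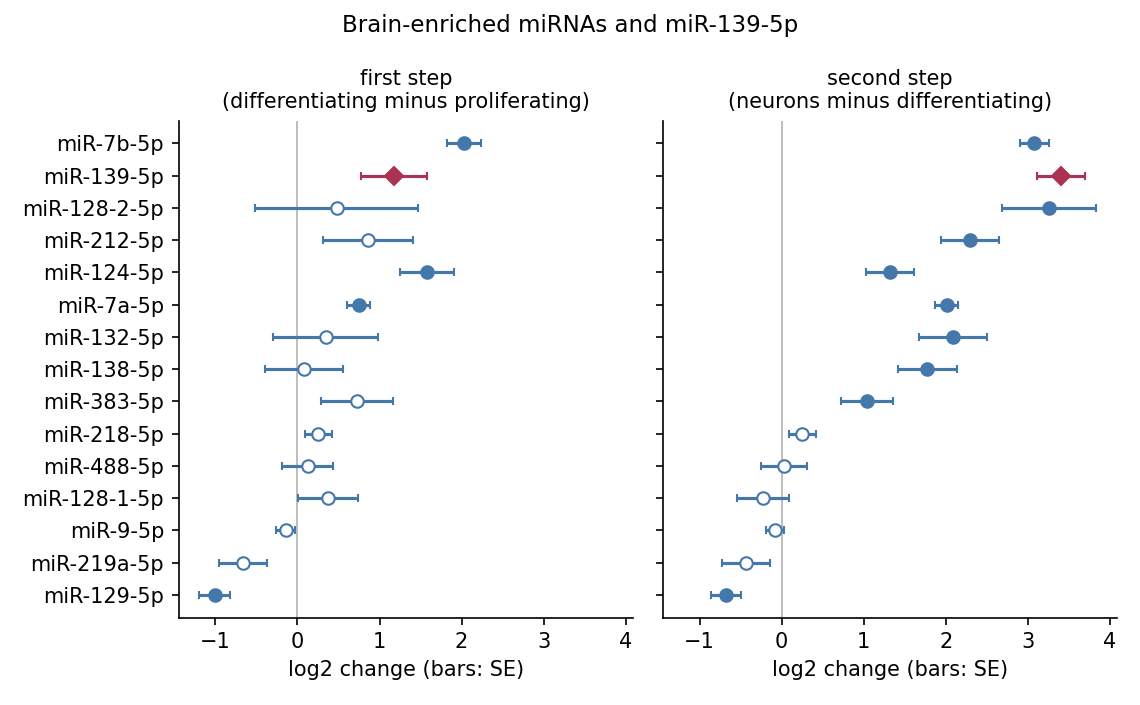
Log2 changes at the first and second step for the 14 tested brain-enriched miRNAs (circles) and miR-139-5p (diamond), with SE bars, ordered by the change over both steps. Filled circles were called at an edgeR adjusted p under 0.05 and open circles were not. At the second step miR-139-5p has the largest value of those drawn, 3.40, and at the first step miR-7b-5p and miR-124-5p lie to its right.

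Listed miRNAs made from introns of protein-coding genes, as miR-139 is, were not called higher more often than the tested miRNAs as a whole. Of a list of 46 miRNAs known to have such hosts, 35 names were tested, and 29 of these had a hairpin within a protein-coding gene on the same strand in GENCODE M21. At the second step 2 of the 35 were called higher and 9 lower, where 23.9% and 22.3% of all tested miRNAs were (edgeR adjusted p under 0.05), with a median log2 change of -0.06, the same as for all tested miRNAs. Both that were called higher, miR-128-2-5p and miR-7a-5p, are on the brain list as well. The other large changes by size were those of miR-25-5p, from an intron of the replication gene Mcm7, which fell by 1.59 (log2, edgeR adjusted p = 0.000155), and of miR-204-5p, with a log2 change of 1.16 that was not called (edgeR adjusted p = 0.159). At the first step 2 of the 35 were called higher and 2 lower, where 7.98% of all tested miRNAs were called in each direction. Over both steps 7 were called higher and 9 lower, where 29.8% and 26.6% of all tested miRNAs were, with a median of 0.02. Whether the host gene bears on the change of miR-139-5p was not tested.

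Summed over each list, markers of blood, vessel and connective tissue cells were higher in every proliferating library than in any other, the reverse of miR-139-5p. The 2 erythroid miRNAs summed to 260 to 354 CPM in the proliferating libraries, 0.881 to 2.86 in the differentiating ones and 0 to 2.31 in the neuron libraries, where miR-144-5p was at 0 in all 3 libraries. The 5 haematopoietic or microglial miRNAs summed to 47.1 to 60.3, 20.7 to 37.0 and 8.44 to 9.01 CPM, with miR-142a-5p at 0 in the neurons. Within that list miR-146a-5p did not follow the sum at the first step, with 5, 12 and 4 counts in the proliferating and 13, 19 and 26 in the differentiating libraries (log2 change 1.08, edgeR adjusted p = 0.0966, not called), and it had 3, 2 and 2 in neurons. The 7 mural or mesenchymal names summed to 439 to 580, 39.99 to 44.9 and 19.2 to 36.4 CPM, and the 3 endothelial names, of which 1 had counts, to 18.4 to 26.2, 11.4 to 12.3 and 5.28 to 12.3 CPM. The 2 miRNAs of the oligodendrocyte lineage summed to 47.0 to 73.3, 40.5 to 47.1 and 40.9 to 49.9 CPM. In the neuron libraries each of these sums was thus below the 181 to 236 CPM of miR-139-5p, and those of the haematopoietic and mural lists were lower there than in any progenitor library. Of the 6 tested names of a list of neuronal markers, all of which are also on the brain list, 4 were called higher over both steps and 1 lower, where 29.8% and 26.6% of all tested miRNAs were. Among those called higher, miR-128-2-5p and miR-138-5p passed the filter only through the neuron libraries. The neuronal names summed to 1852 to 1974, 1693 to 2062 and 2011 to 2561 CPM along the lineage, so the differentiating and neuron libraries overlapped. In sorted populations measured in bulk, a change in the share of cells that hold a miRNA and a change in its amount per cell cannot be told apart.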

How the data were processed

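The members and lists were chosen with earlier results of these data known. The authors deposited 1 table of raw read counts per miRNA row with 1 column per library. Per the submitters' processing notes the build was mm10, and bcl2fastq 1.8.2 and DESeq2 were used; the aligner, counter and miRNA release are not given in the sources used here. Of 1433 rows, 222 without an accession were left out. Of rows sharing a mature name the one with the largest total was kept, and names of 50 counts or more that agreed within 2% of their counts were merged, which joined 7 groups. In edgeR 4.0.16 (R 4.3.3), all 9 libraries entered 1 fit with filterByExpr, TMM and the quasi-likelihood test, without a replicate block. The filter kept 188 miRNAs. Benjamini-Hochberg adjustment ran over these, with a threshold of 0.05. SEs were derived from the F statistics. Likeness used log2 CPM with a prior count of 2. The fit was tested on simulated data. RNAfold 2.7.2 folded the hairpin. Named miRNAs were miR-139-5p, the 5 likest by correlation, the 5 nearest by steps, the 5 largest rises per comparison, its neighbours by level in neurons and the listed miRNAs. Of the largest rises, those unlike miR-139-5p in pattern are given in the closing section.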

Additional observations from a re-analysis of the deposited data

How the results depend on the processing

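The log2 changes of miR-139-5p moved by less than the spread between single replicate libraries in all alternatives run. Leaving out 1 of 3 libraries moves a mean by less than that spread almost by construction, so those fits do not show stability. Leaving out 1 library at a time gave 0.65 to 1.73 at the first step, 3.30 to 3.65 at the second and 4.05 to 5.12 over both. Its rank by rise ran from 10 to 29 at the first step, from 2 to 3 at the second and from 3 to 6 over both in these fits, and was 29 without replicate 1 of the proliferating progenitors. Without the filter on low counts it ranked 101 at the first step, 7 at the second and 6 over both, since 560 miRNAs, many with a few counts, then enter. Restricted to miRNAs that reached 100 CPM in either population, which miR-139-5p did in neurons alone, so that its rise decides its entry, it ranked 1 at the second step and 2 over both; with a prior count of 2, added after seeing the data, it ranked 2 over both. Counting every row with an accession, which repeats reads, gave ranks by level of 237, 178 and 80 along the lineage and mean CPM of 8.24 in differentiating progenitors and 88.4 in neurons. Scaling by total counts gave 224 CPM in neurons and a log2 change of 3.52 at the second step, where it moved the median of all miRNAs by 0.12; over both steps it moved that median by 0.18.

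The number of miRNAs called at the first step, 30, was 68 with every row and ran from 18 to 37 when 1 library was left out, lowest without replicate 1 of the proliferating progenitors. The 87 calls at the second step became 50 with at least a 2-fold change. Same-numbered libraries deviated together weakly and not in all pairs (correlations of deviations from -0.07 to 0.25). The correlations were positive between neighbouring populations and slightly negative between neurons and proliferating progenitors. The numbers were not taken as a pairing, although 7 of 9 libraries correlated best with one of their own number. Whether the numbers mark a pairing was not tested. A replicate block gave 33 and 88 calls at the first and second step in place of 30 and 87, and 108 over both, and log2 changes of miR-139-5p of 1.18, 3.41 and 4.60. Depth limits the first step most, with 26 counts of miR-139-5p in all proliferating libraries.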

Other observations

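The miRNAs with the largest first steps, beside miR-216b-5p, are described here; they were picked for that step, so an early rise follows from the choice. miR-449a-5p, from an intron of Cdc20b and known from multiciliated cells, had 546, 283 and 183 counts in neurons, 98, 99 and 91 in the differentiating libraries and 17, 26 and 5 in the proliferating ones. It rose by 2.23 at the first step and by 0.96 at the second (log2, edgeR adjusted p = 6.55e-05 and 0.00519), and 30.03% of its rise fell at the second step. miR-3078-5p had log2 changes of 2.48 (SE 0.57) and 1.82 (SE 0.31), on 3, 0 and 1 counts in the proliferating libraries. miR-449c-5p had log2 changes of 2.15 (SE 0.51) and -2.08 (SE 0.42). Its counts were 3, 5 and 1 in the proliferating, 16, 22 and 14 in the differentiating and 17, 3 and 3 in the neuron libraries. miR-449c-5p passed the filter on low counts only with the differentiating libraries and miR-3078-5p only with the neuron libraries. No p is therefore given for either. miR-466i-5p rose by 2.43 at the first step (log2, edgeR adjusted p = 0.0397), on counts of 3, 15 and 0 against 61, 16 and 53, and had a log2 change of -1.46 at the second (edgeR adjusted p = 0.0692).

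A wider set of host genes, taken from the annotation after the data had been seen, held 65 other tested miRNAs whose every RefSeq hairpin lies in a protein-coding gene on its strand. At the second step 7 of them were called higher and 17 lower in neurons (edgeR adjusted p under 0.05), where 23.9% and 22.3% of all tested miRNAs were, with a median log2 change of -0.10.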
